A study of Arabidopsis thaliana with 22 samples.

Results

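The 150 loci described here are the genes of Arabidopsis thaliana root cells whose level followed that of WER (AT5G14750) most closely from array to array. They were taken from 27143 measured loci, with 1 transcript model per locus (the model of highest mean). For each locus the Pearson correlation with 5 anchor genes was computed over 18 of the 22 arrays: WER, the root hair gene COBL9, the endodermal gene CASP1, the cortex gene C/VIF2 and the cytokinesis gene KNOLLE. WER was the anchor of highest r for 7285 loci, and the 150 of these with the highest r were kept. The members were thus chosen by their measured levels, so their r with WER is a description and carries no test.

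WER encodes a MYB transcription factor that specifies the hairless cell files of the root epidermis. It acts in a complex with the bHLH proteins GL3 and EGL3 and the WD40 protein TTG1, which switches on the homeobox gene GL2 and so represses the hair program. The small MYB proteins CPC and TRY move into neighbouring cells and compete for the same complex, leaving those cells free to form hairs.

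Roots of 2 genotypes, the mutant atscl26 and the wild type Col0, carried GFP reporters of either epidermis or cortex, whose promoters the sources used here do not name. Seedlings were treated for 2 h with 5 mM KNO3 or a control (called KCl, as in the sample titles), roots were turned into protoplasts, and GFP-positive cells were sorted by fluorescence. By source name the seedlings were 12 days old and the control was 5 mM KCl, whereas the protocol has 9 days and plates kept at 0.1 mM KNO3. The mutated gene, SCL26, belongs to the GRAS transcription factors, and its kind of mutation is not stated in those sources.

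There were 8 groups. Each of atscl26 epidermis KNO3, atscl26 cortex KNO3, atscl26 cortex KCl, Col0 epidermis KNO3, Col0 epidermis KCl and Col0 cortex KCl had n = 3 arrays, and atscl26 epidermis KCl and Col0 cortex KNO3 had n = 2. All seedlings had grown on low nitrate with 30 mM sucrose. The values are log2 expression values from 1-colour NimbleGen arrays, used as deposited. In sorted cells, fewer cells of a type and less RNA per cell cannot be told apart.

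The median log2 value of an array was between 8.78 and 9.04. The 4 arrays that the choice of members left out (Col0 epidermis KCl replicate 2, Col0 epidermis KNO3 replicate 3, Col0 cortex KNO3 replicate 1 and atscl26 cortex KNO3 replicate 1) had a median correlation with the other arrays of 0.56 to 0.80, against 0.85 to 0.92 for the other 18. By mean level, 4 cortex arrays stood apart, with means of 9.24 to 9.28 against 9.13 to 9.16 elsewhere, and 2 of these also belong to the 4 left out. SCL26 had a median of 8.30 in atscl26 arrays and 7.94 in Col0 arrays, and its level does not check the genotype labels. WER itself did not follow the cell type labels in every array, as described next. In the authors' deposited averages, some arrays entered the average of another group as well as that of their labelled group. Whether the labels of these arrays are right could not be settled from the files, so every difference below is one between arrays as labelled.

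In atscl26 under KNO3, WER read 13.15, 10.54 and 8.62 in epidermis arrays, against 12.69, 13.24 and 13.07 in cortex arrays (replicates 1 to 3). In atscl26 under KCl it read 13.19 and 12.99 in epidermis, against 7.77, 7.81 and 12.95 in cortex. Both atscl26 treatments thus hold cortex arrays whose WER level is as high as in epidermis arrays, and under KNO3 the atscl26 cortex arrays all exceed 2 of the 3 epidermis arrays.

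In Col0 under KNO3, WER read 13.20, 11.92 and 13.39 in epidermis, against 9.62 and 7.82 in cortex. In Col0 under KCl it read 11.22, 7.73 and 13.51 in epidermis, against 10.52, 7.24 and 8.66 in cortex. The Col0 groups did not overlap under KNO3 and overlapped under KCl, where epidermis replicate 2, one of the arrays left out, was low.

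The mean of the 150 members showed a similar split, with exceptions among the arrays left out. In atscl26 under KNO3 it was 11.95, 9.45 and 8.20 in epidermis, against 10.08, 11.64 and 11.37 in cortex, and under KCl it was 11.70 and 11.75 in epidermis, against 8.39, 8.53 and 11.82 in cortex. In Col0 under KNO3 it was 11.82, 11.32 and 11.29 in epidermis, against 10.09 and 8.18 in cortex, and under KCl it was 10.15, 9.91 and 11.49 in epidermis, against 8.78, 8.30 and 8.38 in cortex. Here the Col0 groups did not overlap under either treatment, while atscl26 cortex KCl replicate 3 stood with the epidermis arrays and atscl26 epidermis KNO3 replicate 3 with the low cortex arrays. Against WER, the left-out arrays atscl26 cortex KNO3 replicate 1 and Col0 epidermis KCl replicate 2 had members in the middle of the range.

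**Figure D1:**
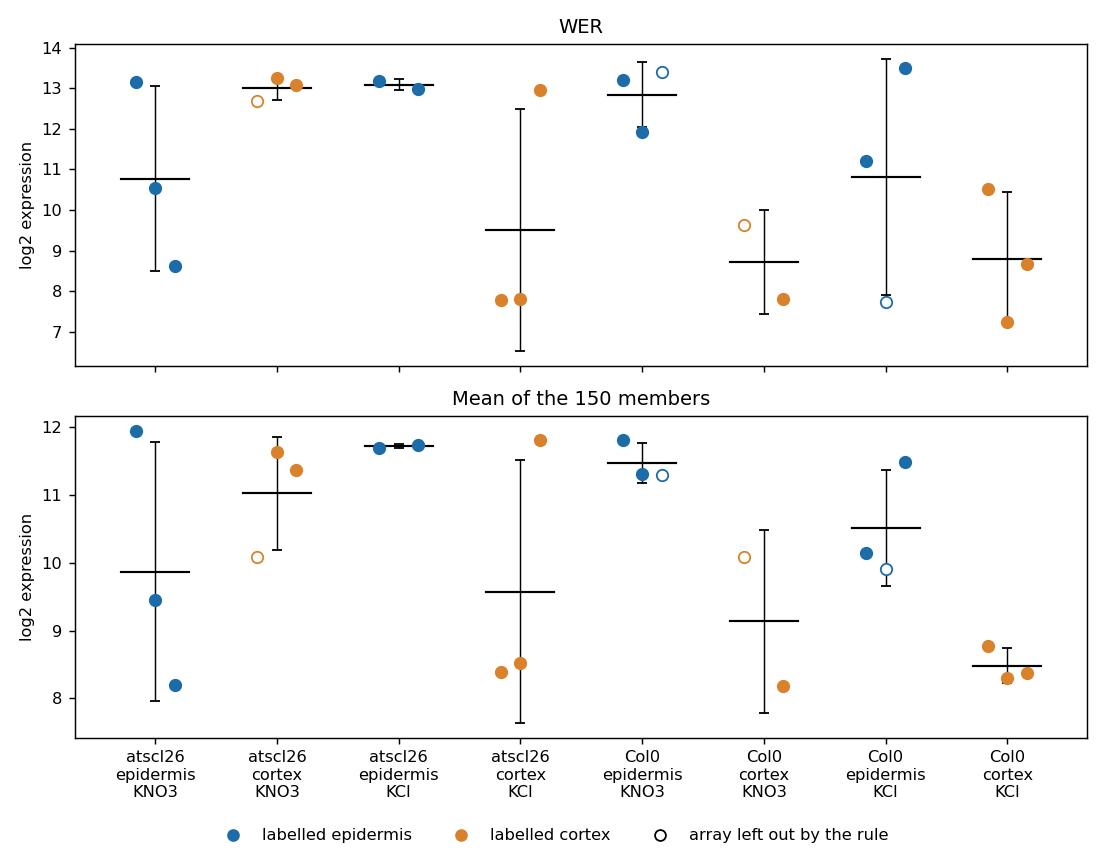
WER (upper panel) and the mean of the 150 members (lower panel) in each array, both in log2 expression, by group; points are arrays (blue epidermis, orange cortex, open where left out by the choice of members), and the bar and whiskers give the group mean ± SD. Members average 9.87 ± 1.91 in atscl26 epidermis KNO3 and 11.03 ± 0.83 in atscl26 cortex KNO3, the reverse of the order in Col0 under KNO3 (11.48 ± 0.29 in epidermis and 9.14 ± 1.35 in cortex).

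Much of the variation lay between arrays of high and of low WER. Of the 18 arrays, 8 had WER between 12.95 and 13.51 and a members' mean between 11.37 and 11.95, and they comprised 5 epidermis and 3 cortex arrays. Another 6 arrays, 1 epidermis and 5 cortex, had WER between 7.24 and 8.66 and a members' mean between 8.18 and 8.53. The remaining 4 arrays lay between, with WER at 10.52, 10.54, 11.22 and 11.92 and a members' mean of 8.78, 9.45, 10.15 and 11.32 in the same arrays. In these 4 the members' mean rose with WER.

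Inside the high and the low class, where WER itself spans little, the members had r near 0 at the median. The median r of a member with WER was -0.06 over the 8 high arrays, where 63 of 150 were positive against 55.6% of all loci. Over the 6 low arrays it was -0.13, with 65 of 150 positive against 40.5% of all loci. These classes were cut on WER in arrays that chose the members, so the values do not tell whether the relation is graded. The r values below are over 18 arrays that share RNA amplification and array type.

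**Figure D2:**
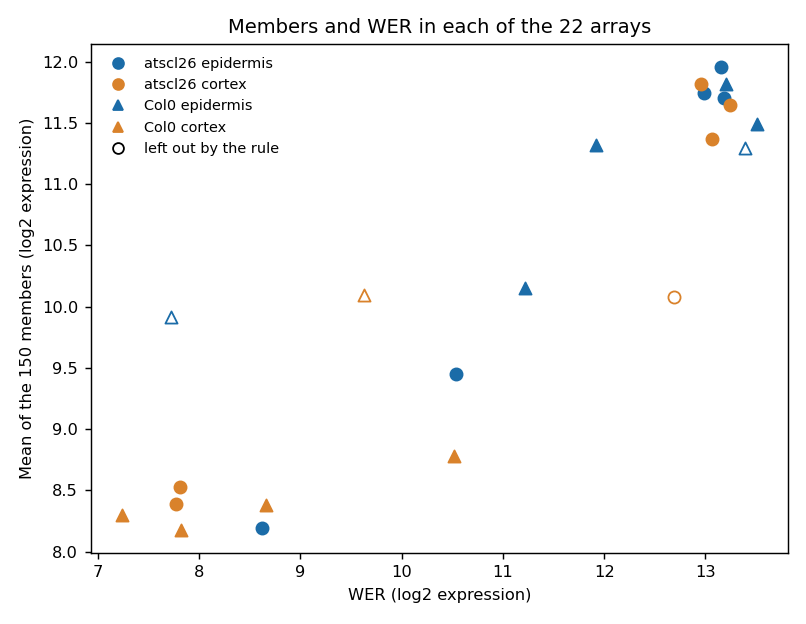
Mean of the 150 members against WER, both in log2 expression, in each of the 22 arrays (circles atscl26, triangles Col0, blue epidermis, orange cortex, open where left out by the choice of members). The 8 arrays of high WER and the 6 of low WER form separate clouds at members' means of 11.37 to 11.95 and 8.18 to 8.53, and 3 cortex arrays of atscl26 lie in the high cloud.

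The r of members with WER ranged between 0.84 and 0.96, with a median of 0.89. The first locus was AT5G10130 (r = 0.96), followed by BRS1 (r = 0.95), a secreted serine carboxypeptidase-like protein linked to brassinosteroid signalling, and WNK3 (r = 0.95), a kinase of the "with no lysine" family. At the limit, AT5G40510, AT4G21910 and AT3G23940 were the last members, with r of 0.8449, 0.8449 and 0.8442. The first loci outside were AT1G09520, AT5G59930 and AT1G06120, with r of 0.8433, 0.8431 and 0.8421, so the limit falls in a continuous series of values. Chosen with all 22 arrays, 95 of the 150 members would be chosen again, and by Spearman's rank correlation 59.

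Within each label the members' r was also high. The median r of members was 0.89 among 9 epidermis arrays (lowest 0.52) and 0.89 among 9 cortex arrays (lowest 0.76). It was 0.92 among 10 atscl26 arrays and 0.87 among 8 Col0 arrays, and 0.93 among 8 KNO3 arrays and 0.89 among 10 KCl arrays, while the median over all loci lay between -0.12 and 0.13. These are the arrays that chose the members, so the values describe and support nothing further.

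BRS1 (AT4G30610) shows the pattern of a single member. In atscl26 under KNO3 it read 11.94, 11.25 and 8.28 in epidermis, against 10.69, 12.49 and 12.65 in cortex, and under KCl it read 12.27 and 12.57 in epidermis, against 6.79, 6.41 and 12.77 in cortex. In Col0 under KNO3 it read 12.06, 12.01 and 8.87 in epidermis, against 8.41 and 7.22 in cortex, and under KCl it read 10.09, 11.61 and 10.91 in epidermis, against 9.32, 6.82 and 7.10 in cortex. Under each treatment the epidermis arrays of Col0 were higher than its cortex arrays, and atscl26 held high and low arrays of both labels.

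The lists of known markers held 128 measured loci, the 5 anchors among them, and 3 are members. Among all measured loci, 150 of 27143 are members. The list of epidermal fate genes held 17 measured loci, of which WER was the anchor and TTG2 a member. TTG2 (AT2G37260), a WRKY factor that acts downstream of the TTG1 complexes in trichomes and seed coat, had r = 0.90. Its level in 11 epidermis arrays ran between 8.39 and 12.21 with a median of 10.97, against 8.55 to 11.80 with a median of 9.02 in 11 cortex arrays, so the ranges overlapped.

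The partners and the main target of WER were not members. EGL3 (r = 0.83, rank 182 among loci nearest to WER), the bHLH factor MYC1 (r = 0.82, rank 202) and GL2 (r = 0.74, rank 534) came closest, followed by GL3 at 0.72, CPC at 0.68, TRY at 0.59, MYB23 at 0.56 and ETC1 at 0.48. TTG1 and the receptor-like kinase SCM, which positions the hairless files, had r of -0.03 and -0.08. JKD, a zinc finger protein of the ground tissue that signals to the epidermis, had r = -0.79.

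GL2 (AT1G79840) did not share the high level of WER in atscl26 cortex under KNO3. There it read 9.25, 7.33 and 6.52 in epidermis, against 7.73, 6.80 and 6.72 in cortex, and under KCl 9.24 and 9.59 in epidermis, against 6.61, 7.08 and 8.22 in cortex. In Col0 it read 10.17, 8.21 and 8.08 in epidermis, against 8.87 and 6.39 in cortex, under KNO3, and 7.53, 9.56 and 8.99 in epidermis, against 6.94, 6.47 and 6.03 in cortex, under KCl. The GL2 groups thus separated by cell type under KCl in both genotypes and overlapped under KNO3. Over all arrays its median was 8.99 in epidermis and 6.80 in cortex, with overlapping ranges (6.52 to 10.17 and 6.03 to 8.87).

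Naming the module a non-hair program is not borne out by every member. RHD6 (AT1G66470), the bHLH factor that starts root hair growth and is known from hair-forming files, had r = 0.90 and rank 52. In atscl26 under KNO3, RHD6 read 12.43, 10.38 and 7.90 in epidermis, against 10.84, 13.23 and 13.25 in cortex, and under KCl 11.51 and 12.49 in epidermis, against 8.28, 9.58 and 12.83 in cortex. In Col0 it read 12.44, 13.05 and 12.59 in epidermis, against 11.51 and 7.83 in cortex, under KNO3, and 11.30, 9.86 and 11.61 in epidermis, against 8.35, 8.26 and 7.82 in cortex, under KCl. RHD6 thus separated the cell types in both Col0 treatments and not in atscl26. It was the 1 member among 16 root hair genes, whose median r with WER was -0.03, and later acting hair genes such as RSL4 (0.45), EXP7 (0.40), RHD2 (-0.44) and LRX2 (-0.66) were outside. WER was the anchor of highest r for 13 of the 17 fate genes, WER included, and for 1 of the 16 root hair genes. With genes of both lists among them, the 150 loci are called genes varying with WER.

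The third list gene is FIT (AT2G28160), the bHLH factor that switches on iron uptake at the root surface, with r = 0.90. FIT was higher in every Col0 epidermis array than in any Col0 cortex array. Over both genotypes it read 12.15 to 14.01 with a median of 13.49 in epidermis, against 9.97 to 13.68 with a median of 11.96 in cortex. Its targets IRT1 and FRO2, an iron transporter and an iron reductase, had r of -0.45 and -0.15, and 11 of the 12 listed genes of nutrient uptake were not members.

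No member came from the lists of protoderm and cuticle, cortex, endodermis, stele, root cap, cell cycle, flavonoid synthesis, gibberellin and GRAS, or wound and protoplasting stress genes. These lists hold 4 to 13 measured loci each. At the share of 150 in 27143 loci, most lists of that size would hold no member. The mean of each list was also set beside the mean of the members over the 18 arrays, without the genes they share. The r was 0.81 for 15 fate genes, 0.72 for 12 protoderm genes, 0.59 for 13 cell cycle genes and 0.61 for 11 uptake genes. It was 0.01 for 15 root hair genes, 0.47 for root cap, -0.33 for stele, -0.49 for endodermis, -0.70 for gibberellin and GRAS genes, -0.49 for wound and protoplasting stress and -0.83 for the 4 cortex genes. WER was left out of these means, while the anchors COBL9, CASP1, C/VIF2 and KNOLLE stayed in their lists. The same 18 arrays and anchors chose the members, so these values are descriptive and no separate evidence.

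Marker levels of other cell types moved with the members, and their part in the results below was not tested. The mean of the 4 cortex markers ran between 7.61 and 11.58 in arrays labelled epidermis, against 8.26 to 10.89 in arrays labelled cortex. The mean of 11 endodermal markers ran between 6.98 and 11.33 in epidermis, against 7.11 to 9.95 in cortex, with Col0 epidermis KCl replicate 1 highest. Both lists therefore overlapped between the labels. These arrays give a level for every gene and no 0, so no defining marker can be called absent.

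Flavonoid genes ran opposite to the members. The mean of 9 flavonoid genes had r = -0.94 with the members' mean. CHS, the first enzyme of flavonoid synthesis, had r = -0.85 with WER, the flavonol synthase FLS1 -0.86, the isomerase CHI -0.85, the hydroxylase F3H -0.76 and their regulator MYB12 -0.80. CHS read 5.96 to 13.25 with a median of 7.08 in epidermis, against 7.86 to 13.81 with a median of 11.80 in cortex.

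Among all loci, 51 had r of 0.9 or more with WER, all of them members, and 10 had r of -0.9 or less. The most negative were the nicotinamidase NIC2 (-0.96), the DNA-binding protein gene AHL20 (-0.93), the cytochrome P450 genes CYP71B26 (-0.93) and CYP89A2 (-0.92), the gibberellin 20-oxidase GA20OX2 (-0.92) and C4H (-0.92), the second enzyme of phenylpropanoid synthesis. SCL26 itself had r = 0.21 with WER.

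The cortex anchor gave nearly the mirror image. Members had r between -0.95 and -0.59 with C/VIF2, median -0.82, and for 20 of the 150 this value was larger in size than the r with WER. The largest were PME44 (-0.95), ANL2 (-0.93) and MYB30 (-0.93). WER and C/VIF2 themselves had r = -0.83. The next highest anchor of 148 members was COBL9, with a median r of 0.52 (0.30 to 0.76), and for the other 2 it was KNOLLE.

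The same choice was made for 2 other anchors, C/VIF2 and COBL9, with 150 loci each. The median r between pairs was 0.85 for the genes varying with WER (lowest 0.53), 0.86 for those of C/VIF2 and 0.41 for those of COBL9. The mean of the C/VIF2 genes had r = -0.94 with the mean of the WER genes over the 18 arrays. The last locus kept had r of 0.84 with WER, 0.86 with C/VIF2 and 0.52 with COBL9. The same arrays chose each set, so the pair values depend on these limits. They are descriptive and do not rank the sets by coherence.

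**Figure D3:**
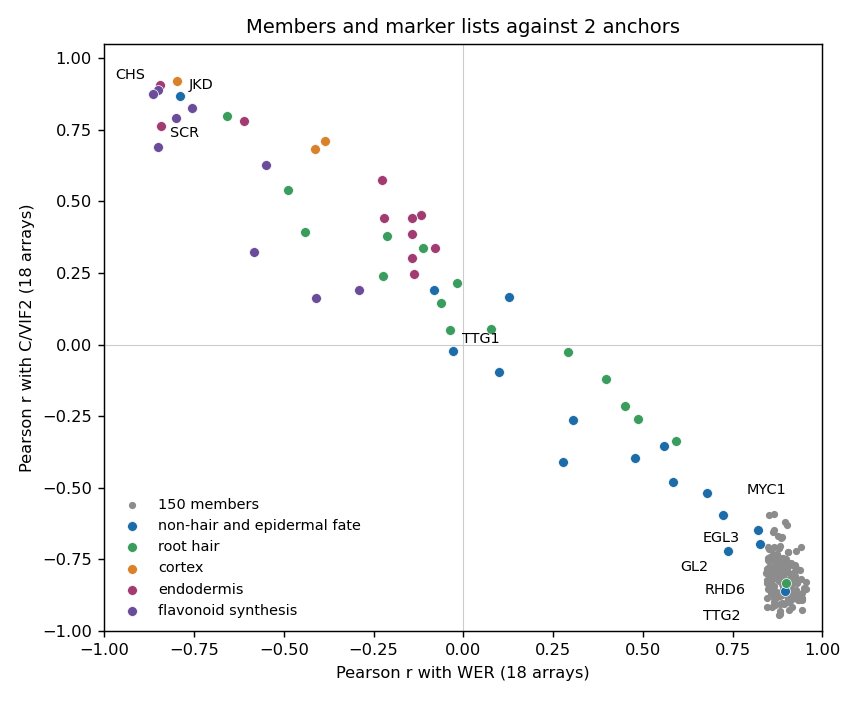
Pearson r with C/VIF2 (vertical axis) against Pearson r with WER (horizontal axis), both over 18 arrays, for the 150 members (grey) and for the genes of 5 marker lists (colours). The members sit at r of 0.84 to 0.96 with WER and -0.95 to -0.59 with C/VIF2, TTG2 and RHD6 lie among them, and GL2, EGL3 and MYC1 lie outside.

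The members varied widely. The SD of a member over the 18 arrays had a median of 1.71 log2 units (lowest 0.29), against a median of 0.59 over all loci. The span from lowest to highest array had a median of 4.99 log2 units, against 2.20 over all loci. AT1G52070 had the largest span, 8.11, and AT1G33120 the smallest, 0.82, within levels of 14.03 to 14.85. These are arrays the choice of members used, and no test was made of the spread.

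The regulators among the members, grouped after their values were seen, include ANL2 (AT4G00730), a homeobox factor known for anthocyanin in subepidermal cells and for root cell patterning. ANL2 read 6.31 to 12.66 with a median of 11.41 in epidermis, against 6.24 to 11.57 with a median of 7.41 in cortex. MYB30, a MYB factor of pathogen-induced cell death and very-long-chain lipids, had medians of 12.79 in epidermis and 8.80 in cortex. Both ranges overlapped. In atscl26 epidermis KNO3 replicates 2 and 3 both genes were low (6.59 and 6.31 for ANL2, 8.53 and 6.67 for MYB30), and in atscl26 cortex KCl replicate 3 both were high (11.57 for ANL2 and 11.86 for MYB30).

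The WRKY family gave 3 members. Besides TTG2 these were WRKY35 (r = 0.94) and WRKY9 (r = 0.89). WRKY35 had medians of 11.16 in epidermis and 7.18 in cortex, and WRKY9 of 13.03 in epidermis and 10.40 in cortex. Other regulators were the LBD protein ASL1 (r = 0.91), the shade avoidance factor PAR2 (r = 0.85) and the signalling peptide gene CLE17 (r = 0.90), whose medians were 11.79 in epidermis and 8.71 in cortex.

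Potassium channels of the Shaker family also gave 3 members. KAT3 (AT4G32650), a silent subunit that modulates the others, had r = 0.93. It read 8.69 to 12.14 with a median of 11.46 in epidermis, against 7.59 to 11.96 with a median of 8.98 in cortex. KT1 (AT2G26650), the inward channel of root potassium uptake also called AKT1, had medians of 10.62 in epidermis and 9.30 in cortex. GORK (AT5G37500), an outward channel of guard cells and root hairs, had medians of 10.43 in epidermis and 8.42 in cortex. All 3 overlapped between the labels. NLM1, a membrane channel of the aquaporin family, had r = 0.92 and medians of 13.63 in epidermis and 11.22 in cortex.

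Lipid and cuticle genes were represented by KCS5 (r = 0.91), CER3 (r = 0.87), LTPG1 (r = 0.86), LTPG2 (r = 0.85), ABCG1 (r = 0.90) and GPAT3 (r = 0.93). KCS5 elongates very long fatty acids, CER3 acts in wax synthesis, the LTPG proteins carry lipids at the cell surface, and ABCG1 and GPAT3 belong to the families of lipid transporters and acyltransferases. CER3 read 8.04 to 12.74 with a median of 11.10 in epidermis, against 6.62 to 11.52 with a median of 7.99 in cortex. The listed epidermal cuticle genes FDH, KCS1, DCR, BDG, LACS2 and GPAT6 were not members, with r between -0.15 and 0.47.

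Cell wall and surface genes included the arabinogalactan proteins AGP31 (r = 0.94) and AGP30 (r = 0.88), the expansin EXPA14 (r = 0.92), the glucomannan synthase CSLA02 (r = 0.92), the endoglucanase KOR2 (r = 0.89), the pectin methylesterase PME44 (r = 0.88) and the UDP-xylose synthase UXS6 (r = 0.89). AGP31 read 9.35 to 14.54 with a median of 14.27 in epidermis, against 9.73 to 14.34 with a median of 11.28 in cortex. The serine carboxypeptidase-like family gave BRS1, scpl18 (r = 0.94), SCPL15 (r = 0.87) and scpl6 (r = 0.86).

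Defence-related enzymes and lectins formed another group. BGLU21 (r = 0.90) and BGLU22 (r = 0.89) encode beta-glucosidases of coumarin metabolism in roots, NSP4 (r = 0.91) a nitrile-specifier protein of glucosinolate breakdown, and JAL31 (r = 0.88) and JAL33 (r = 0.87) jacalin-type lectins. BGLU22 was high everywhere, at 13.55 to 14.82 in epidermis and 13.01 to 14.72 in cortex, with medians of 14.35 and 13.68. CYP81F4, a cytochrome P450 of indole glucosinolate synthesis, had r = 0.87.

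Signalling and trafficking members included the calcium sensors CBL6 (r = 0.92) and CAM8 (r = 0.87), the calcium-dependent kinase CPK27 (r = 0.88), the kinase WAG2 (r = 0.88) that acts on auxin efflux carriers, and YUC9 (r = 0.88), an enzyme of auxin synthesis. YUC9 read 8.40 to 12.80 with a median of 11.61 in epidermis, against 7.35 to 13.07 with a median of 8.74 in cortex. Small GTPases of membrane traffic were RABA5E (r = 0.90), RABA5b (r = 0.88) and ATFP8 (r = 0.85), and ROPGEF14 (r = 0.85) activates ROP GTPases. Of the 150 members, 66 carried a symbol other than the locus, so most loci are given by their identifier.

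**Figure D4:**
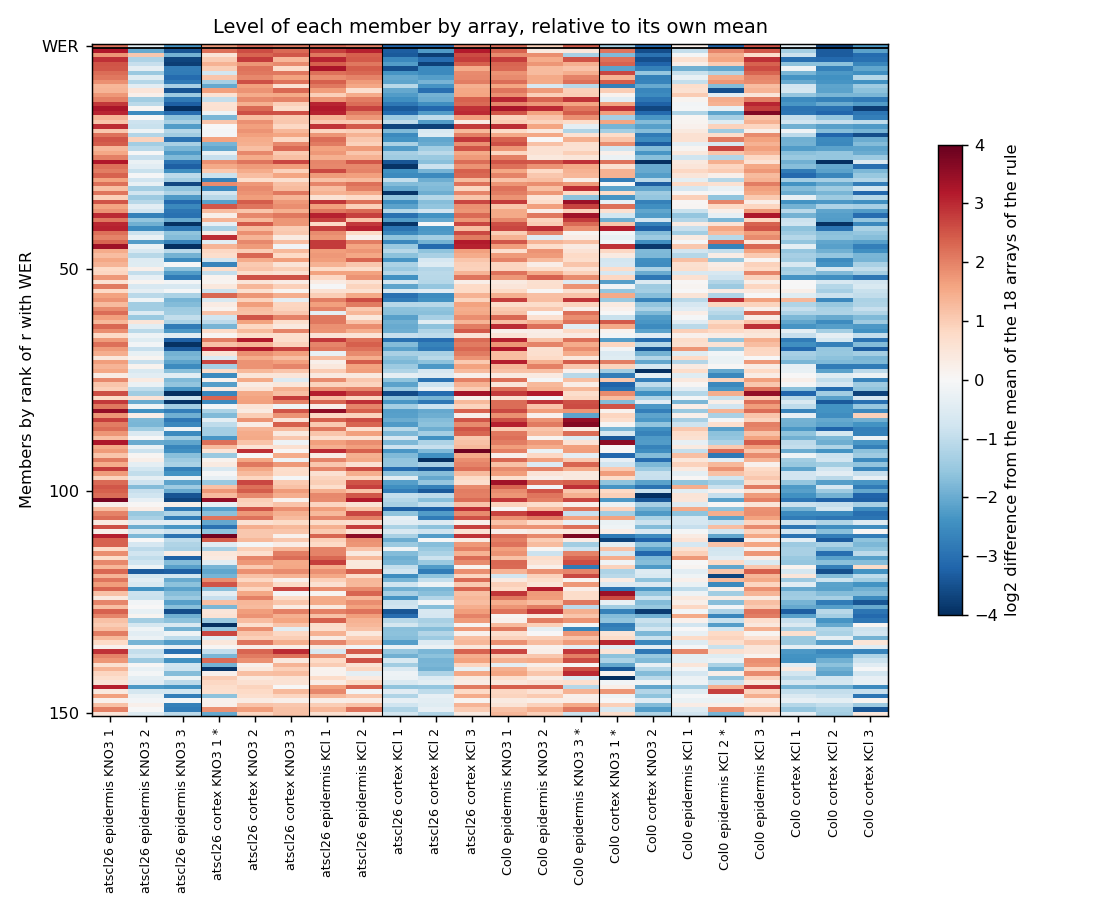
Each member's log2 level in each array minus its own mean over the 18 arrays (colour, red high and blue low, scale ending at 4 in either direction), members down the page by rank of r with WER (WER on top) and arrays across, with lines between groups and a star on the arrays left out. The low arrays are those of Col0 cortex KCl, Col0 cortex KNO3 replicate 2, atscl26 cortex KCl replicates 1 and 2, and atscl26 epidermis KNO3 replicates 2 and 3.

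The 4 arrays outside the choice of members give values the choice did not use. In Col0 epidermis KNO3 replicate 3, where WER was 13.39, 79.3% of members exceeded their own median of the 18 arrays, against 61.0% of all loci. In atscl26 cortex KNO3 replicate 1, where WER was 12.69, the share was 42.0% of members against 61.5% of all loci. Where WER was low, the shares were 46.0% of members against 60.7% of all loci in Col0 cortex KNO3 replicate 1 (WER 9.62) and 38.0% of members against 53.8% of all loci in Col0 epidermis KCl replicate 2 (WER 7.73).

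The share of members was thus above that of all loci in 1 of the 2 left-out arrays of high WER, and below it in the other array of high WER and in both of lower WER. In atscl26 cortex KNO3 replicate 1, MYB30 read 8.02, WRKY35 8.21 and KAT3 8.48, near the low end of their ranges, while RHD6 read 10.84 and GORK 11.04. The 4 arrays correlated least with the others over all models, and no test was made on single arrays.

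Of the member loci, 14 had 17 further transcript models, measured on the same arrays that chose the members. These models had a median r of 0.85 with WER, and 12 of the 17 (70.6%) had r over 0.8, against 25 of 4381 other models of all loci (0.571%). The models of AGP31, KAT3, BGLU21 and LTPG2 had r of 0.99 or more with the model used, and models of a locus may share probes. The counts are therefore descriptive and no separate evidence. Other models of ANL2 and TTG2 had r of 0.80 and 0.73 with WER, and the other model of MES4, a methylesterase gene, had r = -0.33.

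By chromosome, 41 members were on chromosome 1, 32 on chromosome 2, 26 each on chromosomes 3 and 4, and 25 on chromosome 5. Chromosome 2 held 21.3% of members and 15.6% of placed loci, and chromosome 5 held 16.7% of members and 23.2% of placed loci. There were 5 pairs of members next to each other among measured loci, such as BGLU21 and BGLU22 (r = 0.94 between them) and AT5G51490 and AT5G51500 (r = 0.95), and 21 members had another member within 2 measured loci. No background over all loci is given here for these neighbour counts. Signals of near-identical neighbours may be shared on an array and are uncertain as separate members.

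The first comparison asked how members differed between the sorted cell types. Averaged over genotype and treatment, all 150 members were on the higher side in epidermis, with a median log2 difference of 1.39 (0.13 to 2.52), while the median over all models was -0.08 and 40.4% were higher. No member passed an adjusted p of 0.05 in limma (smallest 0.777), where 0.00317% of 31524 models passed. At an unadjusted p under 0.05, 91 members were higher in epidermis, against a background of 2.9% of models. The count of members at that level was 55 without Col0 cortex KNO3 replicate 2, 124 without atscl26 cortex KCl replicate 3, and between these values when any other array was left out. WER itself was 1.87 ± 0.77 higher in epidermis in limma (adjusted p = 0.796). The members were chosen through WER in 18 of these arrays, so their direction comes with the choice and the counts are descriptive.

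The 1 model that passed in limma was AT5G18150, at 2.06 ± 0.26 (adjusted p = 0.0092), which is not a member (r = 0.37 with WER). The largest member difference in limma was that of CLE17, 2.52 ± 0.63 (adjusted p = 0.777). BRS1 differed by 2.15 ± 0.72, WNK3 by 2.25 ± 0.84, WRKY35 by 2.30 ± 0.64, ANL2 by 2.07 ± 0.79 and FIT by 1.63 ± 0.44. KAT3 differed by 1.61 ± 0.50, GORK by 1.09 ± 0.60, KT1 by 0.90 ± 0.49, RHD6 by 1.34 ± 0.62 and TTG2 by 0.89 ± 0.42. No adjusted p of these genes was below 0.777. Without Col0 cortex KNO3 replicate 2, KT1 differed by 0.47, RHD6 by 0.88 and AGP31 by 1.02 (1.53 ± 0.64 with all arrays).

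**Figure D5:**
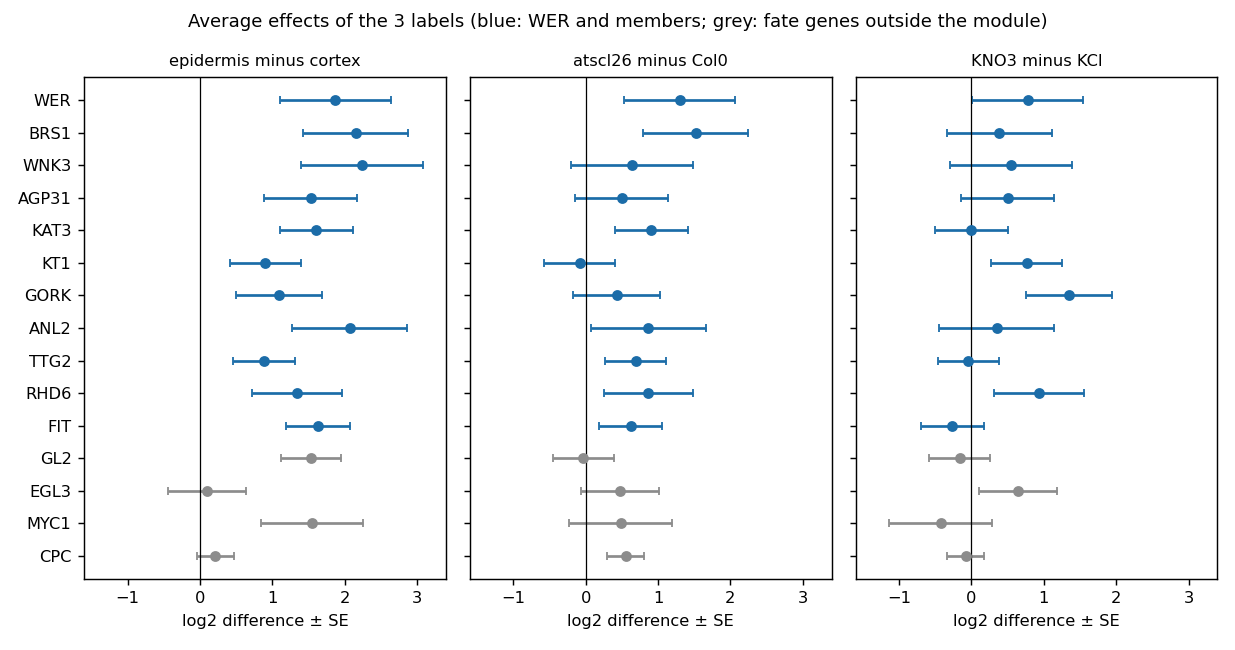
Log2 differences ± SE from limma for WER and 10 members (blue) and 4 fate genes outside the module (grey), averaged over the other labels, for epidermis minus cortex, atscl26 minus Col0 and KNO3 minus KCl. The blue genes lie at 0.89 to 2.25 for the cell types and between -0.26 and 1.52 for genotype and nitrate, with GORK farther from 0 for nitrate (1.35) than for cell type (1.09), and none passed the adjusted threshold.

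Counted array by array, all 6 Col0 epidermis arrays exceeded all 5 Col0 cortex arrays for 26 of the 150 members, against 0.273% of models. Besides FIT and WRKY35 these included KCS5, LTPG1, CSLA02, CBL6, WAG2, BGLU22 and ALDH3F1, an aldehyde dehydrogenase gene. In atscl26 the 5 epidermis arrays exceeded the 6 cortex arrays for 0 of the 150, against 0.171% of models. These counts too come from arrays that chose the members.

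Within conditions the difference had one direction in 3 of the 4. Epidermis minus cortex had a median over members of 2.06 in Col0 KCl (146 of 150 higher), 2.27 in Col0 KNO3 (150 higher) and 2.07 in atscl26 KCl (149 higher). In atscl26 KNO3 it was -1.15, with 139 members lower in epidermis and 11 higher, while the median over all models was -0.16. The 11 exceptions included FIT at 0.65 ± 0.83, the oxidase-like gene SKS6 at 0.15 ± 0.50, NPG1 at 0.23 ± 1.02 and mtHsc70-1, a mitochondrial chaperone gene, at 0.06 ± 0.64, all smaller than their standard errors. At the other end, AT1G14220 was at -3.81 ± 1.32 and AT5G10130 at -3.12 ± 1.72. In none of the 4 did a member pass an adjusted p of 0.05 in limma, where 0.0% of models passed. At an unadjusted p under 0.05 in limma, 61 members were higher in Col0 KCl (2.19% of models), 57 in Col0 KNO3 (4.48% of models) and 26 in atscl26 KCl (1.86% of models). In atscl26 KNO3, 10 members were lower at that level (1.59% of models). Most of the arrays compared also chose the members through WER, so these counts are descriptive.

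The difference between these conditions was computed after the values were seen. In atscl26, the cell type difference under KNO3 minus that under KCl had a median of -3.20 over members, and all 150 were lower, against a median of -0.13 over all models. In limma 70 members had an unadjusted p under 0.05, against 2.05% of models lower, and 0 passed after adjustment (smallest 0.936), where 0.0% of models passed. The difference in the cell type effect between atscl26 and Col0 had a median of -1.73, with 144 members lower, 24 at an unadjusted p under 0.05 (background 1.27% lower) and 0 after adjustment. In atscl26, WER itself had group means of 13.09 in epidermis and 9.51 in cortex under KCl. Under KNO3 its means were 10.77 in epidermis and 13.00 in cortex, so its own difference had the same sign. As members were chosen through WER in most of these arrays, their shared direction cannot be told apart from that choice. The counts of both comparisons are therefore descriptive. Both rest on groups of 2 or 3 arrays. WER levels split within atscl26 epidermis KNO3 (SD 2.27) and atscl26 cortex KCl (SD 2.98). They did not split within atscl26 epidermis KCl (SD 0.14) or atscl26 cortex KNO3 (SD 0.28). The comparison with Col0 also rests on the Col0 groups, where the SD of WER ran from 0.80 in epidermis KNO3 to 2.91 in epidermis KCl.

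The genotype comparison asked whether members differed between atscl26 and Col0. The median log2 difference was 0.61 (-0.17 to 2.00), and 145 of 150 were on the higher side, against 44.7% of all models. No member passed in limma (smallest adjusted p 0.806), where 0.0% of models passed, and 13 had an unadjusted p under 0.05 on the higher side against 3.13% of models. That count was 1 with array weights and 36 without the 4 arrays of high mean. It was 5 without Col0 epidermis KCl replicate 2, atscl26 cortex KCl replicate 3 or atscl26 epidermis KNO3 replicate 1, and 6 and 7 without Col0 cortex KNO3 replicate 2 and atscl26 epidermis KCl replicate 2. It was 8 without atscl26 cortex KNO3 replicate 3, 23 without atscl26 cortex KNO3 replicate 1 or Col0 cortex KNO3 replicate 1, 27 without atscl26 cortex KCl replicate 1 and 30 without atscl26 epidermis KNO3 replicate 3. CAM8 differed most, by 2.00 ± 0.56, followed by AT5G38940 at 1.78 ± 0.77 and BRS1 at 1.52 ± 0.72. SCPL15 had the lowest value, -0.17 ± 0.50. WER itself was 1.30 ± 0.77 higher in atscl26 in limma (adjusted p = 0.806). Members were chosen through WER in 18 of these arrays. Their shared direction cannot be told apart from that choice, and the counts are descriptive. The median was 0.33 without atscl26 cortex KCl replicate 3, 0.36 without atscl26 epidermis KNO3 replicate 1 and 1.14 without the 4 arrays of high mean.

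The nitrate comparison asked whether 2 h of KNO3 shifted the members. The median log2 difference was 0.28 (-0.57 to 1.35), with 118 of 150 on the higher side against 53.9% of all models. None passed in limma (smallest adjusted p 1.00), where 0.0% of models passed, and 3 members had an unadjusted p under 0.05, all higher, against 1.02% of models. That count was 0 without Col0 cortex KNO3 replicate 1, 8 without atscl26 epidermis KNO3 replicate 3, 14 without atscl26 cortex KCl replicate 3 and 16 without Col0 cortex KNO3 replicate 2, and 1 to 5 without any other single array. It was also 0 with array weights, without the 4 arrays of low correlation and without the 4 arrays of high mean. GORK had the largest difference, 1.35 ± 0.60, and RABA5b differed by 1.06 ± 0.38. WER itself was 0.78 ± 0.77 higher under KNO3 in limma, and did not pass after adjustment. As the members were chosen through WER in 18 of these arrays, these counts too are descriptive, and a shared direction may come with the choice. The median was 0.13 without the 4 arrays left out of the choice of members and 0.09 without the 4 of high mean, and it ranged between 0.03 and 0.57 when single arrays were left out.

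The authors' deposited table of group averages holds the same members with other values in 2 of the 8 groups. For Col0 epidermis KCl it gives WER at 12.63, against 10.82 as the mean of the 3 arrays, and it equals the mean of replicates 1 and 3 with atscl26 epidermis KNO3 replicate 1. For Col0 cortex KNO3 the authors' deposited table gives 8.40, against 8.72 from the 2 arrays, and it equals their mean with atscl26 cortex KCl replicate 1. Members averaged 11.20 in the authors' deposited table for Col0 epidermis KCl, against 10.52 over the labelled arrays. Both added atscl26 arrays also stayed in the deposited averages of their labelled groups, which equal the means of the 3 labelled arrays. The deposited averages thus count these arrays in both genotypes and give no alternative labelling of them. Col0 epidermis KCl replicate 2 was left out of the average of its group. The labels and not these averages were used throughout, and whether the labels are right was not settled here.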

How the data were processed

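The files give log2 expression values of 31524 transcript models on 22 arrays; the authors made these deposited log2 values with RMA, per the submitters' processing notes. The RMA settings and software version are not stated there. Of 24 arrays made, the submitters removed 2 of low quality, per the series design text. The authors' group averages, also deposited as log2 values, entered no test.

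The values were used as deposited. Members were chosen by Pearson r over 18 arrays as stated above. In limma 3.58.1 (R 4.3.3), the 22 arrays were fitted with a mean for each of the 8 groups (14 residual and 17.7 total degrees of freedom), and p-values were adjusted by Benjamini-Hochberg over all models within each comparison, with a threshold of 0.05. Replicates are called biological by the labels. The number of arrays limits the precision, and the median standard error of an average difference was 0.365 log2 units. The fit was tested on simulated data.

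The members, the 12 marker lists (128 loci measured) and the tests were chosen with earlier results of these data known. Named genes are WER and the other anchors, the first members by r, those at the limit, the list genes, families with 3 or more members and the extreme members of each comparison; further members were grouped by function after their values were seen. Symbols and gene order were read from a RefSeq gene table of TAIR10.1; FIT, GL2 and other list genes kept their common names. Promoter sequences and protein sequences were not used here, so no motif was searched. Replicate numbers did not pair the arrays (correlation of deviations over 0.1 in 19 of 71 same-number pairs, median -0.01). Among pairs of different number it was over 0.1 in 40 of 140, with a median of 0.004. Alternatives tried were a replicate block, quantile normalisation, leaving out dim models, array weights (the weight estimation stopped before convergence), a trended robust prior, other array sets, Spearman correlation, the mean of a locus's models, and leaving out each array.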

Additional observations from a re-analysis of the deposited data

How the results depend on the processing

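No member passed the adjusted threshold in limma in any of the 3 average comparisons under any alternative run, and the medians of the members kept their sign in each. The alternatives refit all or most of the same arrays with members chosen through WER. A kept sign, here or for the single genes below, is therefore no separate evidence. The median difference ranged between 1.09 and 1.66 for epidermis minus cortex, 0.33 and 0.87 for atscl26 minus Col0, and 0.03 and 0.57 for KNO3 minus KCl when each array was left out. With the replicate block the medians stayed at 1.39, 0.61 and 0.28, with 0 members called in each and 1, 0 and 0 of all models. Array weights gave a median of 0.27 for atscl26 minus Col0. The count of all models called for epidermis minus cortex, 1 as reported, was 0 without dim models, with the trended robust prior and without the 4 arrays of high mean (chosen after seeing the data), and 25 without the 4 arrays of low correlation. Without those 4 arrays it was 3 for atscl26 minus Col0 and 1 for KNO3 minus KCl. Leaving out single arrays gave 0 to 3 models for epidermis minus cortex, 0 to 30 for atscl26 minus Col0 (30 without Col0 cortex KNO3 replicate 2) and 0 to 3 for KNO3 minus KCl; the cause was not tested. Choosing the members again kept 95 of the 150 with all 22 arrays and 59 with Spearman correlation, and 125 to 145 when each array was left out. The other choices kept 147 with the mean of models, 147 with quantile normalisation, 119 without dim loci and 129 without the arrays of high mean. The search for promoter motifs was not run. No alternative turned the direction of WER or of the 10 genes recomputed for epidermis minus cortex. The differences within conditions, single genes for genotype and nitrate, the interactions and the list correlations were run under no alternative. Signal over background is not given in the files, so low levels have no detection limit here.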
